A study of Mus musculus with 8 samples.

Results

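The genes of fibroblast growth factor (FGF) signalling were followed in 4 RNA-seq libraries made from mouse embryonic stem cells (ESC) and from their derivatives after retinoic acid differentiation (RA-DIFF). The set held 35 protein-coding genes of the 32567 genes counted, chosen by name. It comprised 22 Fgf ligand genes, the 4 receptor genes Fgfr1 to Fgfr4, 3 Sprouty genes, 3 Spred genes, the ERK phosphatase gene Dusp6 and the ETS factor genes Etv4 and Etv5. A row for Spry3 was not analysed here. The average level over the 4 libraries was above the limit used for calls (an average log2 CPM above 0, where CPM is the read count scaled to the size of the library) for 27 of the 35 genes.

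Secreted FGFs bind receptor tyrosine kinases together with heparan sulfate or a Klotho protein, and the receptors pass the signal through the adaptor Frs2, Ras and the kinases Raf, Mek and Erk. Erk activity raises transcription of Etv4, Etv5, Dusp6, Sprouty and Spred genes, and the last 3 kinds of protein dampen the same cascade. In ESC, autocrine Fgf4 acting through Fgfr1 and Fgfr2 is known to prepare the cells for leaving the naive state, and in the embryo FGFs are known to pattern the neural plate, the midbrain-hindbrain boundary and the limb. A subgroup of FGF homologous factors (Fgf11 to Fgf14) stays inside the cell and binds voltage-gated sodium channels.

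The conditions were wild-type ESC, huntingtin-null ESC homozygous for the Hdh ex4/5 allele, and RA-DIFF cells labelled with each of these genotypes. Both kinds of RA-DIFF cells came from ESC kept off feeder cells for 4 passages, which were aggregated into embryoid bodies and grown for 8 days, with 5 µM retinoic acid from day 4, and the cells were plated for 2 h before they were taken. Polyadenylated RNA was sequenced once per condition, so line, genotype and library cannot be told apart, no difference below has a replicate check, and no p-value is given. Intervals are exact 95% intervals and cover counting error only, since reads without molecular identifiers are not independent molecules.

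The libraries held between 63617410 and 110569127 counts. The targeted gene, Htt, had 166 CPM in wild-type and 111 CPM in Htt-null ESC, but 73.3 CPM in the RA-DIFF library with the wild-type label and 98.7 CPM in that labelled Htt-null. The Htt level thus ran with the label in ESC and against it in RA-DIFF, and the gene count covers all exons, not the deleted ones alone. The per-gene values of the study also ran against the RA-DIFF labels. Over 1241 genes, the log2 difference of its Htt-null RA-DIFF values had a standard deviation of 0.003 from the library labelled wild type. From that labelled Htt-null it was 0.71. For its wild-type values the standard deviations were 0.71 and 0.005. Which labels are right was not tested. RA-DIFF values are therefore given by label. An exchange of the RA-DIFF labels would keep the size of each RA-DIFF ratio between genotypes and turn its sign, and would alter the size of the RA responses and, among the genes above the expression limit used below, their sign for Fgf3, Fgf11 and Spry4. The ESC libraries carried 4864 and 4660 CPM (wild type, Htt-null) over 12 pluripotency markers, against 284 and 251 CPM in RA-DIFF (labelled wild type, labelled Htt-null). The 12 neural progenitor markers summed to 201 CPM in each ESC library, and to 5162 and 6677 CPM in RA-DIFF.

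The RA-DIFF libraries also differed in markers of other cell types. In the library with the Htt-null label, 15 of 16 fibroblast and mesenchyme markers were higher by the limits given below, beside 11.9% of all genes. The list summed there to 3284 CPM against 896 CPM, with Acta2 at 635 against 41.0 CPM and Col3a1 at 922 against 364 CPM. Of 12 neuron markers, 9 were lower there, beside 9.22% of all genes, with sums of 1435 against 3033 CPM. Tubb3 stood at 271 against 875 CPM. Map2, also highly counted, was not called, at 522 against 728 CPM. The 8 endothelial markers summed to 93.2 against 27.4 CPM, most of it Kdr at 71.7 against 17.9 CPM. Of the 7 above the expression limit 4 were higher and 1 lower, beside 11.9% and 9.22% of all genes. The lower gene was Pecam1, at 1.30 against 3.34 CPM. In ESC the fibroblast list summed to 1382 CPM (wild type) and 1241 CPM (Htt-null), nearly all of it Fn1, and Dcn and Lum were at 0 in 1 ESC library each. Leaving out Lum, at 0 and 1 counts, 7 of the other 15 were lower in Htt-null ESC and none higher, beside 3.72% and 5.33% of all genes. Their median log2 ratio was -0.72, the opposite sign to RA-DIFF by label. In these bulk samples fewer cells of a type and less RNA per cell cannot be told apart, and the part of these differences in the FGF values was not tested.

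A gene was called higher or lower when the log2 ratio of its normalised CPM was above 0.75 or below -0.75. Between the ESC lines the FGF genes differed little. Only Fgf2 was called higher in Htt-null ESC, 1 of 27 genes beside 5.33% of all 15492 genes above the expression limit. Fgf5 and Fgf12 were called lower, 2 of 27 beside 3.72% of all genes. The median log2 ratio of the 27 was 0.04, and that of all genes was -0.04.

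In RA-DIFF more of the set differed by label. In the library with the Htt-null label, 7 of 27 genes were higher, beside 11.9% of all genes, and 5 of the 7 were feedback genes or ETS factors (Dusp6, Etv4, Etv5, Spry4 and Spred1), with Fgf1 and Fgf18 as the others. In the same library 7 of 27 genes were lower, beside 9.22% of all genes, and all 7 were Fgf genes (Fgf3, Fgf4, Fgf5, Fgf11, Fgf12, Fgf13 and Fgf15). No receptor gene was called in either direction. The median log2 ratio was 0.25 over the 27 genes and -0.01 over all genes. For 17 of the 27 genes the counting interval of the ratio left out 0 at both stages. Of these, 10 had the same sign in ESC and RA-DIFF as labelled, Fgf2 and Fgf5 among them, and 7 would have it with the RA-DIFF labels exchanged, Dusp6 among those. Fgf5 passed the expression limit through wild-type ESC alone, so that its sign in ESC was a condition of being counted.

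Differentiation moved most of the set. In cells labelled wild type, 17 of 27 genes were higher in RA-DIFF than in ESC, beside 34.0% of all genes, and 8 were lower, beside 26.2%. In cells labelled Htt-null, 16 were higher, beside 34.4%, and 6 were lower, beside 24.9%. The median log2 ratio was 1.16 in cells labelled wild type and 1.86 in cells labelled Htt-null, against 0.12 and 0.17 over all genes. With the RA-DIFF labels exchanged the medians would be 2.03 in wild-type and 1.41 in Htt-null cells, in the opposite order. Fgf9, Fgf10, Fgf12 and Fgf14 were under 1 CPM in both ESC libraries and passed the expression limit through RA-DIFF, so that their higher level there was a condition of being counted. Fgf5 passed through wild-type ESC alone, the one library in which it was above 1 CPM, so that its lower level in the other 3 libraries was likewise a condition of being counted. Fgf4 passed through its high level in ESC.

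**Figure D1:**
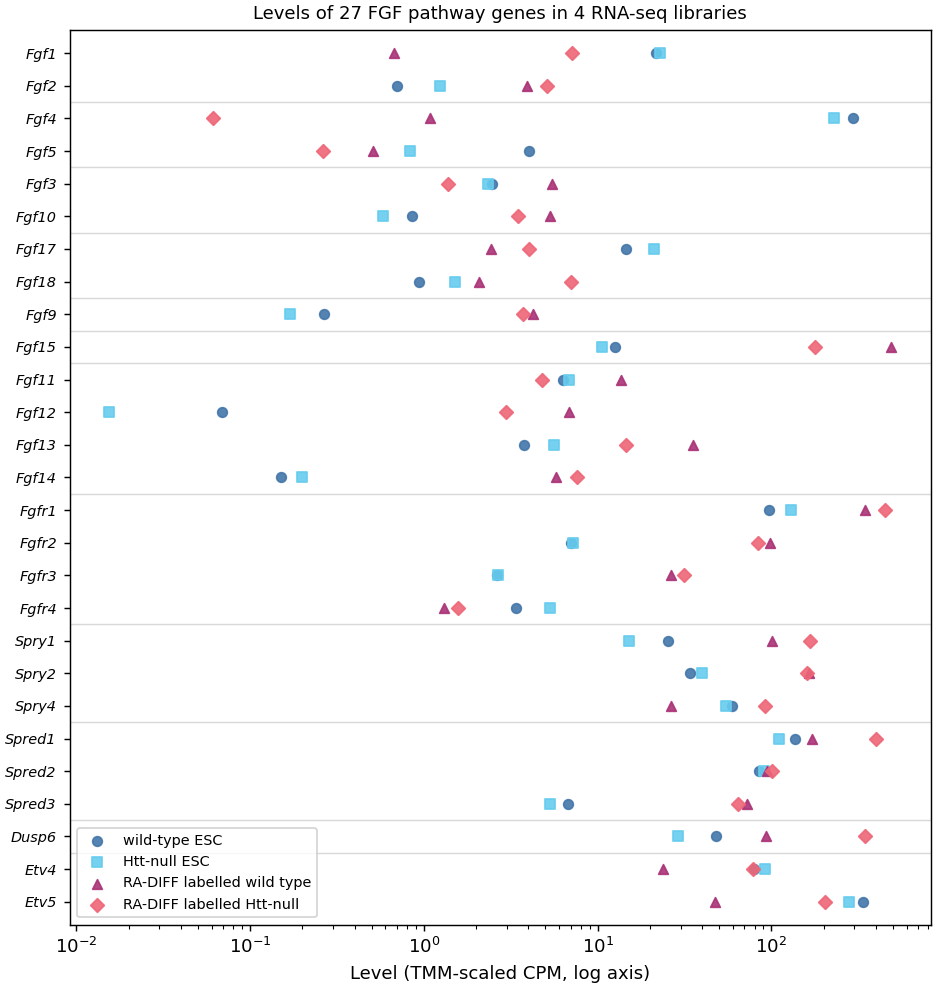
Normalised level of the 27 FGF pathway genes above the expression limit (CPM, log axis) in each of the 4 libraries, 1 point per library, grouped by role with grey lines between groups. Fgf4 spans from 296 CPM in wild-type ESC to 0.06 CPM in the RA-DIFF library with the Htt-null label, and the points of Spred2 lie together between 85.1 and 101 CPM.

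Fgf4, the autocrine ligand of ESC, was the most abundant of the 35 transcripts per length in both ESC libraries, at 92.8 CPM per kb of exon in wild-type and 72.1 CPM per kb in Htt-null cells. Its counts were 25712 in wild-type ESC and 15029 in Htt-null ESC, against 122 in the RA-DIFF library with the wild-type label and 6 in that labelled Htt-null, or 296, 230, 1.09 and 0.06 CPM. It was thus near 1 CPM or below after differentiation by either label, and the log2 ratio of RA-DIFF to ESC was -8.09 (-8.36 to -7.83) in cells labelled wild type and -11.88 (-13.33 to -10.76) in cells labelled Htt-null. The 2 RA-DIFF libraries differed by -4.16 (-5.63 to -3.00), while the ESC lines differed by -0.36. Of the 12 pluripotency markers, 8 were lower in the RA-DIFF library with the Htt-null label, beside 9.22% of all genes. Higher was 1, Tbx3, at 2.05, beside 11.9% of all genes. The highly counted Pou5f1 and Zfp42 had log2 ratios of -3.24 and -3.58 between the RA-DIFF libraries, and Sox2, which neural progenitors share, had -0.01.

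Fgf4 lies on chromosome 7 between Fgf3 and Fgf15, and the 3 genes fall within 62871 bp of GRCm38 on the + strand, in the order Fgf3 (chr7:144838083-144844436), Fgf4 (chr7:144861386-144865243) and Fgf15 (chr7:144896532-144900953). Fgf15, the mouse counterpart of human FGF19, is an endocrine FGF of the gut and is also expressed in the embryonic neural tube. It had 12.7 CPM in wild-type and 10.6 CPM in Htt-null ESC, and 491 CPM in the RA-DIFF library with the wild-type label against 178 CPM in that labelled Htt-null. Its RA-DIFF to ESC ratio was 38.8-fold in cells labelled wild type and 16.8-fold in cells labelled Htt-null. At 161 CPM per kb, Fgf15 was the most abundant transcript of the set per length in the RA-DIFF library with the wild-type label. In that labelled Htt-null it had 58.1 CPM per kb, behind Dusp6, Spry2 and Spred1.

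Fgf3, a ligand of inner ear and hindbrain development, had 213 counts in wild-type and 152 in Htt-null ESC, 613 in the RA-DIFF library with the wild-type label and 136 in that labelled Htt-null. It was therefore higher after differentiation in cells labelled wild type (log2 ratio 1.16, 0.93 to 1.39) and lower, just past the limit, in cells labelled Htt-null (-0.75, -1.10 to -0.41). All 3 genes of the cluster were lower in the RA-DIFF library with the Htt-null label, with log2 ratios of -1.99 for Fgf3, -4.16 for Fgf4 and -1.47 for Fgf15. The antisense lincRNA Gm26793, which overlaps Fgf15 by 930 bp on the other strand, had a ratio of -1.67, and whether reads in that overlap were counted by strand was not tested, so that they are not assigned here to 1 of the pair. The next genes on the Fgf15 side, Oraov1 and Ccnd1, had ratios of -0.49 and 0.22 and were not called.

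The promoter window of Fgf4 is shown because this gene had the widest range of levels in the set. It is the RefSeq window of GRCm38.p6 from 250 bases before to 50 bases after the annotated start, on the + strand at chr7:144861136-144861435, and holds 2 GC boxes (GGGCGG, in capitals, sought on both strands). That motif was present in 35.7% of all 32851 RefSeq promoter windows of 300 bases. The window holds no ETS core (GGAA or its complement TTCC), which 96.0% of all windows hold.
Fgf4 promoter: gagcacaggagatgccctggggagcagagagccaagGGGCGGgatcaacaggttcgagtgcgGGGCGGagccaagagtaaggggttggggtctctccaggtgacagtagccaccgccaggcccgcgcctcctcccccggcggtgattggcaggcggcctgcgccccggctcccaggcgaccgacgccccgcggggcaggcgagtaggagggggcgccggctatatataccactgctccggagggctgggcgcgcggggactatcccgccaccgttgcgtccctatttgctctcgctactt

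Fgf1 and Fgf2 are ligands without a classical signal peptide. Fgf1 had 1877 counts in wild-type and 1489 in Htt-null ESC, 75 in the RA-DIFF library with the wild-type label and 704 in that labelled Htt-null, or 21.6, 22.8, 0.67 and 7.15 CPM. The ESC lines thus differed by a log2 ratio of 0.08 (-0.02 to 0.18) and the RA-DIFF libraries by 3.42 (3.07 to 3.78), or 10.7-fold. With the RA-DIFF labels exchanged the latter would be -3.42. It overlaps the gene Arhgap26 on the opposite strand of chromosome 18, which had a log2 ratio of 0.55 in RA-DIFF.

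Fgf2, a mitogen of neural progenitors, had 61 counts in wild-type and 81 in Htt-null ESC, and 438 and 502 in RA-DIFF (labelled wild type, labelled Htt-null). Its log2 ratio between the ESC lines was 0.82 (0.32 to 1.32), so that the counting interval reached below the limit for a call. In RA-DIFF the ratio was 0.38, and the gene was higher than in ESC by 2.47 in cells labelled wild type and 2.04 in cells labelled Htt-null. Fgf2 overlaps Nudt6 on the opposite strand. It also overlaps RP23-328P19.4 over 2896 bases, again on the opposite strand, and that gene had more counts than Fgf2 in every library (1356 and 1106 in ESC, 1392 and 2075 in RA-DIFF), with a log2 ratio of 0.76 in RA-DIFF.

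Fgf5, a marker of the epiblast and of ESC that have left the naive state, was among the 27 genes through its level in wild-type ESC, as said above. It had 351 counts (4.05 CPM) in wild-type and 54 counts (0.83 CPM) in Htt-null ESC, a ratio of -2.29 (-2.73 to -1.87), or 4.89-fold lower. In RA-DIFF it had 57 and 26 counts, a ratio of -0.95 (-1.67 to -0.25).

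Of the other secreted ligands, Fgf17 and Fgf18 belong to the Fgf8 subfamily, Fgf9 to a subfamily of glial and gonadal growth factors, and Fgf10 is the mesenchymal ligand of limb and lung buds. Fgf17 had 14.6 and 21.2 CPM in wild-type and Htt-null ESC and 2.42 and 4.02 CPM in the RA-DIFF libraries with the wild-type and the Htt-null label, and its log2 ratio by label in RA-DIFF, 0.73, was just inside the limit. Fgf18 had 0.93, 1.50, 2.08 and 7.06 CPM in the same order, a ratio of 1.76 (1.55 to 1.98) between the RA-DIFF libraries. Fgf18 was thus called higher by label in RA-DIFF and Fgf17 was not.

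Fgf9 had 23 and 11 counts in wild-type and Htt-null ESC and 477 and 368 in RA-DIFF (labelled wild type, labelled Htt-null). Fgf10 had 74 and 38 counts in ESC and 599 and 342 in RA-DIFF. Both were higher after differentiation, which was a condition of being counted, as said above. The log2 ratios in cells labelled wild type and Htt-null were 4.00 and 4.47 for Fgf9 and 2.65 and 2.58 for Fgf10. Neither was called between the genotypes at either stage. The remaining 8 ligand genes (Fgf6, Fgf7, Fgf8, Fgf16, Fgf20, Fgf21, Fgf22 and Fgf23) were below the expression limit, with 0 to 0.54 CPM in ESC and 0 to 1.49 CPM in RA-DIFF. Fgf16 was at 0 counts in Htt-null ESC and Fgf20 at 0 in the RA-DIFF library with the wild-type label, where the exact intervals reach 0.0566 and 0.0329 CPM.

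The FGF homologous factors, which neurons express, were all higher in RA-DIFF in cells labelled wild type. For Fgf12 and Fgf14 this direction was a condition of being counted, as said above. In cells labelled Htt-null Fgf11 was not called, at -0.52. Fgf13 had 3.75 and 5.58 CPM in wild-type and Htt-null ESC, and 35.5 CPM in the RA-DIFF library with the wild-type label against 14.6 CPM in that labelled Htt-null. Fgf11 had 6.34 and 6.87 CPM in ESC, and 13.7 against 4.80 CPM in RA-DIFF. Fgf12 had 6 counts in wild-type and 1 in Htt-null ESC, and 768 against 294 counts in RA-DIFF. The log2 ratios between the RA-DIFF libraries were -1.29 for Fgf13, -1.51 for Fgf11 and -1.20 for Fgf12, so these 3 ran in the direction of the neuron markers, whose median was -1.25. Fgf14 did not, with 645 counts in the RA-DIFF library with the wild-type label and 750 in that labelled Htt-null, a ratio of 0.40, after 13 counts in each ESC library. The call of Fgf12 between the ESC lines rested on 7 reads, with a ratio of -2.17 and an interval from -7.70 to 0.87.

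The receptors differed strongly by stage and little by genotype. Fgfr1, the main receptor of ESC and of neural tissue, had 97.3 and 130 CPM in wild-type and Htt-null ESC and 345 and 454 CPM in the RA-DIFF libraries with the wild-type and the Htt-null label. Fgfr2 had 7.03, 7.24, 97.7 and 83.8 CPM in the same order, and Fgfr3 had 2.62, 2.68, 26.6 and 31.6 CPM. These 3 receptors were thus higher in both RA-DIFF libraries than in either ESC library, and Fgfr1 kept the highest level of the 4 receptors per length, at 9.85 CPM per kb in wild-type ESC and 46.0 CPM per kb in the RA-DIFF library with the Htt-null label.

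Fgfr4 ran the other way, with 3.40 and 5.33 CPM in ESC and 1.31 and 1.56 CPM in RA-DIFF. The log2 ratios of RA-DIFF to ESC in cells labelled wild type were 1.83 for Fgfr1, 3.80 for Fgfr2, 3.35 for Fgfr3 and -1.37 for Fgfr4, and in cells labelled Htt-null they were 1.81, 3.53, 3.56 and -1.77. By genotype the 4 receptor genes lay between 0.04 and 0.65 in ESC and between -0.22 and 0.40 in RA-DIFF. The span annotated for Fgfr2 in the deposited table, chr7:130162451-133123350, covers other genes, whose reads cannot be told apart from those of Fgfr2 where exons overlap.

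**Figure D2:**
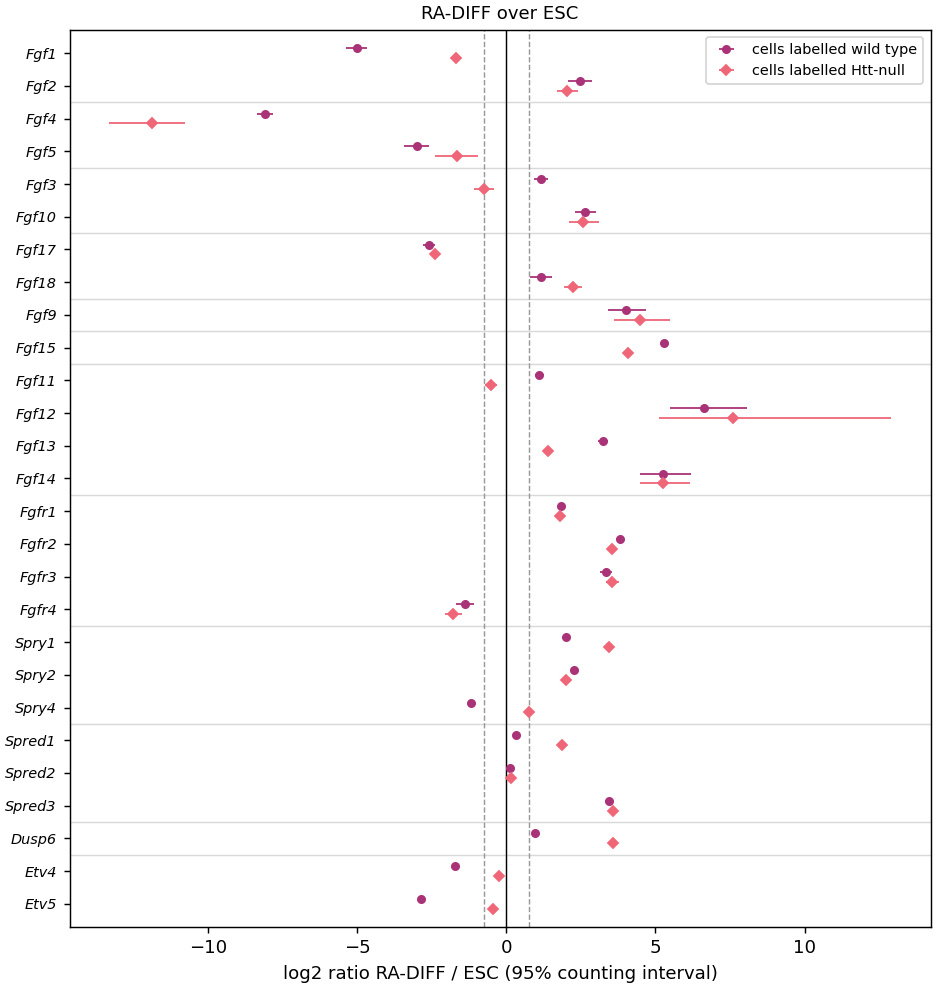
Log2 ratio of RA-DIFF to ESC for the 27 genes, in cells labelled wild type (circles) and labelled Htt-null (diamonds), with 95% counting intervals as bars and dashed lines at 0.75 and -0.75. Receptors and Spred2 gave nearly the same ratio by either label, whereas Dusp6 lay at 0.96 and 3.56 and Fgf3 on either side of 0.

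Of the 9 feedback genes and ETS factors, 5 were higher in the library with the Htt-null label and none was lower, beside 11.9% and 9.22% of all genes. Dusp6 encodes the cytoplasmic phosphatase that removes phosphate from Erk (chr10:99263231-99267488, + strand). It had 4156 counts in wild-type and 1901 in Htt-null ESC, 10447 in the RA-DIFF library with the wild-type label and 33919 in that labelled Htt-null, or 47.9, 29.1, 93.2 and 344 CPM. The log2 ratio was -0.72 (-0.80 to -0.64) in ESC, just inside the limit, and 1.89 (1.85 to 1.92) in RA-DIFF, so that the sign differed between the stages by label. With the RA-DIFF labels exchanged the ratio in RA-DIFF would be -1.89, and Dusp6 would have the same sign at both stages. With 110 CPM per kb, Dusp6 was the most abundant transcript of the set per length in the RA-DIFF library with the Htt-null label.

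Etv5 and Etv4 are transcription factors of the ETS family whose transcription follows Erk activity. Etv5 (chr16:22381309-22439719, - strand) had 339 CPM in wild-type and 279 CPM in Htt-null ESC, 47.2 CPM in the RA-DIFF library with the wild-type label and 203 CPM in that labelled Htt-null. Etv4 had 79.6, 91.8, 23.9 and 78.0 CPM in the same order. The RA-DIFF library with the wild-type label thus stood below the other 3 for both genes, and the log2 ratio between the RA-DIFF libraries was 2.11 (2.06 to 2.15) for Etv5 and 1.70 (1.64 to 1.77) for Etv4. In cells labelled wild type both were lower after differentiation, by -2.84 for Etv5 and -1.73 for Etv4, and in cells labelled Htt-null neither was called, at -0.46 and -0.23.

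The Sprouty and Spred proteins inhibit signalling between the receptor and Raf. Spry4 had 59.3 and 54.5 CPM in wild-type and Htt-null ESC, and 26.4 CPM in the RA-DIFF library with the wild-type label against 91.5 CPM in that labelled Htt-null, a log2 ratio of 1.79 (1.73 to 1.85). Spred1, whose product recruits neurofibromin to Ras, had 137 and 110 CPM in ESC and 172 against 399 CPM in RA-DIFF, a ratio of 1.22 (1.19 to 1.24). Spry1 had 25.3 and 15.2 CPM in ESC and 101 against 166 CPM in RA-DIFF. Its ratios, -0.74 in ESC and 0.72 in RA-DIFF, were both just inside the limit, with the signs seen for Dusp6, and would share a sign with the labels exchanged.

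Other genes of these families showed no difference of that size. Spry2 had 34.1 and 40.1 CPM in ESC and 164 and 160 CPM in RA-DIFF, and was higher after differentiation by either label, by 2.27 and 1.99 on the log2 scale. Spred3 had 6.73 and 5.32 CPM in ESC and 72.9 and 64.2 CPM in RA-DIFF. Spred2 had 85.1, 90.8, 93.8 and 101 CPM in the 4 libraries and was called in none of the 4 comparisons. By genotype, Spry2, Spred2 and Spred3 lay between -0.34 and 0.24 at either stage.

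**Figure D3:**
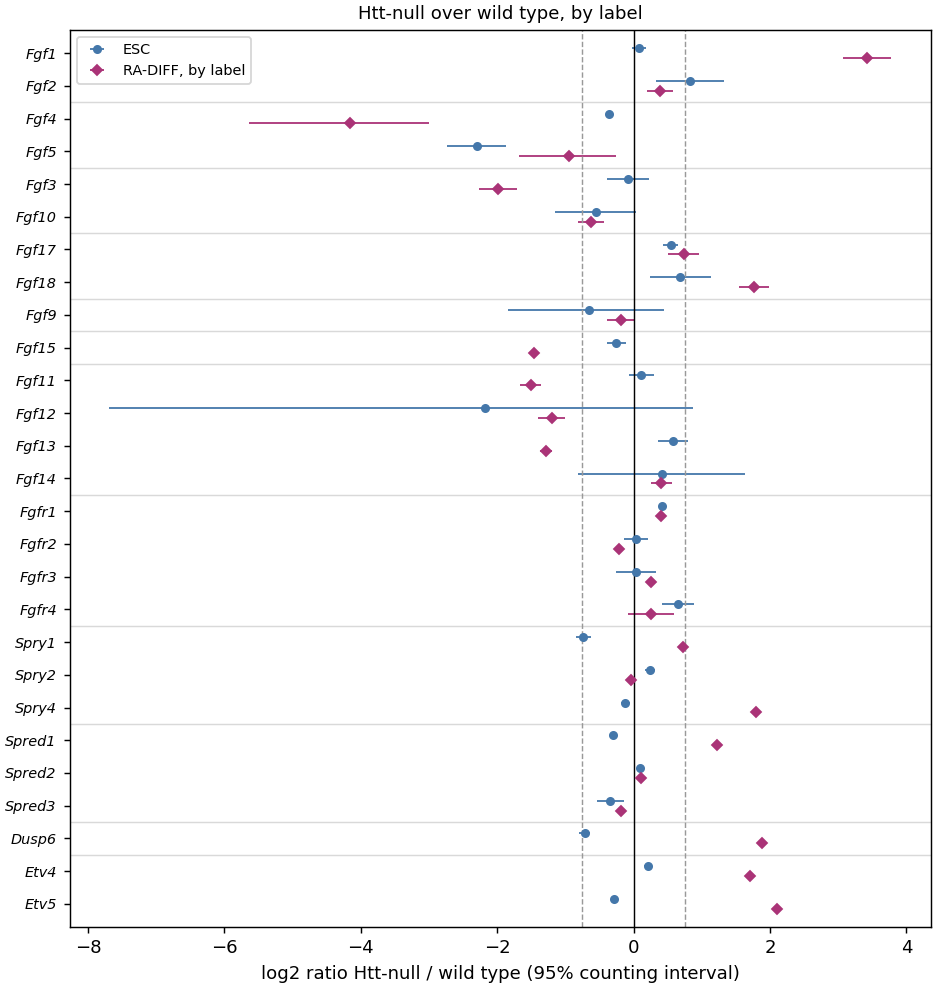
Log2 ratio of Htt-null to wild type, by label, for the 27 genes in ESC (circles) and RA-DIFF (diamonds), with 95% counting intervals as bars and dashed lines at 0.75 and -0.75. In ESC the genes past the limits are Fgf2, Fgf5 and Fgf12, and in RA-DIFF the ratios reach from -4.16 for Fgf4 to 3.42 for Fgf1.

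The RefSeq promoter windows of Dusp6, Etv5 and Spred1 are shown because these genes were higher together in the RA-DIFF library with the Htt-null label. Etv4 and Spry4 were also called higher there but had no window in the RefSeq set used. ETS cores (GGAA, or TTCC for a core on the other strand) are in capitals. Each window runs from 250 bases before to 50 bases after a start annotated by RefSeq in GRCm38.p6, which can differ from the start in the deposited table. They lie at chr10:99262981-99263280 (+ strand, Dusp6, 6 cores), chr16:22438319-22438618 (- strand, Etv5, 6 cores) and chr2:117120821-117121120 (+ strand, Spred1, 5 cores), and the median over all windows was 3 matches. A second window of Etv5, at chr16:22439521-22439820, holds none and is not printed. It spans the start of Etv5 in the deposited table, 22439719, which the printed window does not. Of the 34 windows of the 26 genes of the set that RefSeq's table covers, 32 hold a core, beside 96.0% of all windows.
Dusp6 promoter: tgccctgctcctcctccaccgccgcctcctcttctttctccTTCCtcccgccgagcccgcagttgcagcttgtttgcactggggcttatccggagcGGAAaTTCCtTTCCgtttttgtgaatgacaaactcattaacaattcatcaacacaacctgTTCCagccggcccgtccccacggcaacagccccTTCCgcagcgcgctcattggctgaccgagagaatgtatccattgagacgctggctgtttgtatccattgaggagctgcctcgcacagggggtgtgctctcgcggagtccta
Etv5 promoter: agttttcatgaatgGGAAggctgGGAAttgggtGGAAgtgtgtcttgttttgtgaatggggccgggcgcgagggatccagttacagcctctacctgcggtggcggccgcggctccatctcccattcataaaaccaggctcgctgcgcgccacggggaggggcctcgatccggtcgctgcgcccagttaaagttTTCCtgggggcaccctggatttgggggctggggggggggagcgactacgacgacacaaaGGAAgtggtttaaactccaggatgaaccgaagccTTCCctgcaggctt
Spred1 promoter: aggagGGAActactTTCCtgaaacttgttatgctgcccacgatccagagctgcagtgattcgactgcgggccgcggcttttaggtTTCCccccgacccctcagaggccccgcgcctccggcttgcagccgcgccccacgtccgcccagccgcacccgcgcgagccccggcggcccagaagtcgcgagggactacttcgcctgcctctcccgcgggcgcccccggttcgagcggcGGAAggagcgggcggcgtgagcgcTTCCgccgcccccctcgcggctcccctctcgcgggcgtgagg

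The RA response also differed between the labels. Among the 27 genes the difference was over 1 in size for 14 as labelled, and would be for 15 with the RA-DIFF labels exchanged. The log2 ratio of RA-DIFF to ESC was larger in cells labelled Htt-null by 3.34 for Fgf1, 1.34 for Fgf5 and 1.08 for Fgf18. It was also larger by 2.60 for Dusp6, 2.39 for Etv5, 1.91 for Spry4, 1.53 for Spred1, 1.50 for Etv4 and 1.46 for Spry1. It was smaller by label, with differences of -3.80 for Fgf4, -1.91 for Fgf3, -1.86 for Fgf13, -1.62 for Fgf11 and -1.21 for Fgf15. For Spred2, Spry2 and Spred3 the differences were 0.01, -0.27 and 0.16, and for the receptors they lay between -0.40 and 0.21. With the RA-DIFF labels exchanged the differences would be -1.17 for Dusp6, -1.82 for Etv5, -1.67 for Spry4, -0.91 for Spred1, -1.91 for Etv4 and 0.02 for Spry1. For Fgf1, Fgf5 and Fgf18 they would be -3.49, 3.24 and -2.45. They would be 4.52 for Fgf4, 2.06 for Fgf3, 0.71 for Fgf13, 1.39 for Fgf11 and 1.72 for Fgf15. Past 1 only with the labels exchanged were Fgf12 (0.98 as labelled, 3.37 exchanged), Fgf17 (0.19 and -1.28), Fgf2 (-0.44 and -1.20) and Fgf10 (-0.07 and 1.17). For Spred2, Spry2 and Spred3 they would be -0.20, -0.20 and 0.52, and for the receptors they would lie between -0.90 and 0.18. With 4 libraries these differences could not be tested.

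Of the other genes of the pathway, 30 encode co-receptors, binding proteins and enzymes of heparan sulfate, 28 the relay inside the cell, and 20 further outputs of Erk. The relay list runs from Frs2 to Erk and its substrate kinases and also holds Plcg1, Pik3ca and Akt1. By genotype none of the 28 relay genes was called in ESC, beside 5.33% of all genes higher and 3.72% lower. In RA-DIFF 1 was higher, the adaptor Shc1 at 0.84, and none lower, beside 11.9% and 9.22%. Their medians were -0.12 and 0.05. By stage 6 were higher and 6 lower in cells labelled wild type, beside 34.0% and 26.2% of all genes, and 7 were higher and 4 lower in cells labelled Htt-null, beside 34.4% and 24.9%. Rps6ka1, an Erk substrate kinase, was the relay gene with the lowest ratio by either label, at -2.65 in cells labelled wild type and -2.60 in cells labelled Htt-null.

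Of the 28 co-receptor and matrix genes above the expression limit, 12 were higher in the RA-DIFF library with the Htt-null label and 3 were lower, beside 11.9% and 9.22% of all genes, and the median was 0.49. Gpc4, a glypican, had 33.4 CPM in the library with the wild-type label and 203 CPM in that labelled Htt-null, a log2 ratio of 2.60. Sulf1, a sulfatase that removes sulfate from heparan sulfate, had 119 and 688 CPM, a ratio of 2.53. Ndst3, a sulfotransferase expressed in brain, ran the other way, with 39.4 and 6.17 CPM and a ratio of -2.67. The list thus held genes at either extreme, and the part of the 15 of 16 fibroblast markers called higher in that library was not tested.

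In ESC the same list had 1 gene higher and 2 lower, beside 5.33% and 3.72% of all genes, with Fgfbp3, a carrier of FGF ligands, at 0.78. The genes called lower were Ndst3 (18 against 0 counts) and Ndst4 (8 against 3), both with few reads in ESC. With differentiation 20 of 28 were higher and 3 lower in cells labelled wild type, beside 34.0% and 26.2% of all genes, and 23 higher and 3 lower in cells labelled Htt-null, beside 34.4% and 24.9%. Of the 28, Hs3st1, Ndst3 and Ndst4 were under 1 CPM in both ESC libraries and Fgfbp1 and Klb in both RA-DIFF libraries, so that the direction of these 5 was a condition of their being counted. Fgfbp3 went from 1.30 to 68.1 CPM in cells labelled wild type and from 2.24 to 124 CPM in cells labelled Htt-null. Ndst3 and Ndst4 were higher by 7.57 and 5.06 in cells labelled wild type. In cells labelled Htt-null Ndst3 started from 0 counts, and Hs6st2 was higher by 4.56 in cells labelled wild type and 6.03 in cells labelled Htt-null. Fgfbp1, a second carrier, was lower by either label, at -3.70 and -3.18.

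Of the further Erk outputs, in the RA-DIFF library with the Htt-null label, 8 of 18 genes above the limit were higher and 2 lower, beside 11.9% and 9.22% of all genes, with a median of 0.60. The early response gene Egr1 had 2344 counts in wild-type and 652 in Htt-null ESC, and 4603 against 15248 in RA-DIFF, with log2 ratios of -1.44 and 1.91. Its sign by label differed between the stages as that of Dusp6 did, and with the RA-DIFF labels exchanged the ratio in RA-DIFF would be -1.91, the sign seen in ESC. The phosphatase gene Dusp4 and Cnpy1, a gene of the midbrain-hindbrain boundary, were lower, at -1.23 and -1.09. With differentiation Dusp9, an Erk phosphatase gene of ESC, was lower by either label (-4.36 and -4.16), and so was Spsb1 (-3.21 and -1.39).

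**Figure D4:**
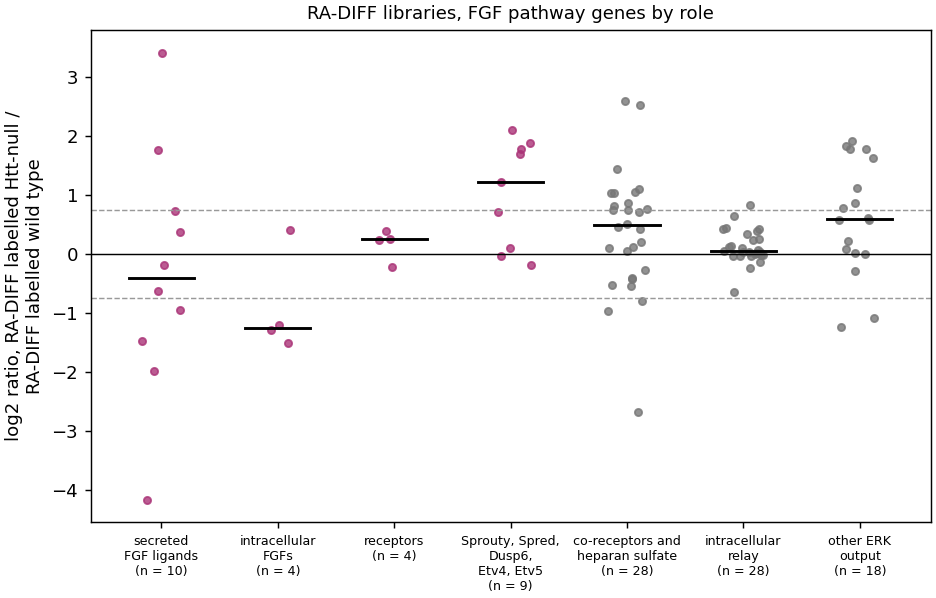
Log2 ratio of the RA-DIFF library with the Htt-null label to that labelled wild type, 1 point per gene above the expression limit, by role, with the median of each group as a bar and dashed lines at 0.75 and -0.75. The medians are -0.41 for 10 secreted ligands, -1.24 for 4 intracellular FGFs, 0.25 for 4 receptors and 1.22 for 9 feedback genes and ETS factors, and 0.49, 0.05 and 0.60 for the co-receptor, relay and Erk output lists.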

How the data were processed

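RNA-seq counts per gene were used from 4 libraries, 1 per condition. The authors aligned 50 bp paired-end reads of a dUTP strand-specific library to GRCm38.p4 with TopHat2 2.0.14, counted them per GENCODE gene with HTSeq 0.6.1, and deposited unscaled counts. Per the Methods, options without a stated value, and so the strand option, kept the default of the program; its effect on a dUTP library was not tested. The deposited small RNA counts were not used here. Counts were scaled by TMM factors over the 4 libraries (edgeR 4.0.16 in R 4.3.3), and ratios of CPM were taken in Python 3.11.15 with pandas 2.3.3, numpy 2.4.6 and scipy 1.17.1, and drawn with matplotlib 3.10.9. A gene was called when its absolute log2 ratio was above 0.75 and its average log2 CPM over the 4 libraries above 0, the size limits of the Methods. The rule of the Methods also asked for an edgeR p-value below 0.05 at an assumed dispersion of 0.1. That part was not required here and was run only as an alternative, so the calls here are wider than the rule of the study. A count of 0 was set to 3 counts. Of all genes called between the ESC lines, 29 higher and 32 lower were at or under 3 counts in both libraries, none of them an FGF gene. Intervals are exact binomial for ratios and exact Poisson for CPM. Levels between genes were compared as CPM per kb of merged GENCODE vM21 exons, in which all 35 genes were found. With 1 library per condition no test was run; DESeq2 1.42.0 size factors, library size alone, other limits, a prior count of 2 and exact tests at assumed dispersions of 0.01 and 0.1 were alternatives. The calling step was tested on simulated data.

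The genes and lists were chosen with earlier results of these data known. Values in every library are given for the 27 genes past the limits in a comparison or at 10 CPM or more in a library. Over the pathway lists together, the 3 called genes highest and the 3 lowest per comparison are named if the higher library held 100 counts or more, and of marker lists up to 3 of the most counted genes. Dcn, Lum and Tbx3 were named beyond this rule after their values were seen. The per-gene RA-DIFF values that accompany the study follow the deposited RA-DIFF columns with the genotype labels exchanged, as the Htt count does. The labels were kept as deposited.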

Additional observations from a re-analysis of the deposited data

Results flagged for a closer look

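Fgf3 moved in opposite directions with differentiation by label, higher by 1.16 in cells labelled wild type and lower, at -0.75, in cells labelled Htt-null, a difference of -1.91 on the log2 scale. With the RA-DIFF labels exchanged the responses would again be opposite, -0.83 and 1.23, with a difference of 2.06. This difference between the labels was not tested, since each of the 4 conditions has 1 library.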

How the results depend on the processing

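Each comparison rests on 1 library per condition, so differences between lines, cultures and libraries cannot be told apart from those between genotypes or stages. Counting precision limits Fgf2, Fgf9, Fgf10, Fgf12, Fgf14 and Fgf18 in ESC, Fgf4 and Fgf5 in RA-DIFF, and the 8 genes below the expression limit. No paired analysis was possible because each group has 1 library, and for the same reason no replicate was left out.

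In ESC, the count of genes called higher (1) became 3 of 35 with no lower expression limit (17.0% of all genes) and 0 with an expression limit of log2 CPM 2 (18 genes, 2.66%), with an absolute log2 ratio above 1 (3.18%) or with the exact test at a dispersion of 0.1 added (0.981%). The count called lower (2) became 0 of 18 with the expression limit of 2 (2.35%) and 1 with the exact test at a dispersion of 0.01 (2.98%) or 0.1 (0.645%). Spry1 joined the lower calls with DESeq2 size factors. In RA-DIFF, the 7 higher became 11 of 35 with no expression limit (18.4%), and the 7 lower became 4 of 18 with the expression limit of 2 (6.87%) and 4 of 27 with the exact test at a dispersion of 0.1 (3.40%). With the expression limit of 2 the higher counts with differentiation became 10 of 18 by either label (32.0% and 33.3%), and the lower count in cells labelled Htt-null became 3 (22.1%). With a prior count of 2 Fgf3 was no longer called in cells labelled Htt-null.

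With the RA-DIFF labels exchanged, the median ratio in RA-DIFF became -0.25. Of the genes above the expression limit, the RA response then turned its sign for Fgf3 (-0.83), Fgf11 (-0.40) and Spry4 (0.62) in wild-type cells and for Fgf3 (1.23), Fgf11 (0.99) and Spry4 (-1.05) in Htt-null cells. Among 70 RA responses, those below the limit included, the exchange left 21 within their counting interval, moved 45 beyond it and turned 4 called ones. The other scalings turned no sign of a gene above the limit. Below it, Fgf7 in ESC turned to -0.02 with DESeq2 size factors, Fgf16 in ESC to 0.05 with library size alone and Fgf20 in RA-DIFF to 0.94 with a prior count of 2. Library size alone moved 26 of 140 gene ratios beyond their counting interval, DESeq2 size factors moved 5, and the prior count of 2 moved none.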

Other observations

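Fgf8, a ligand of the midbrain-hindbrain boundary and of the primitive streak, was below the expression limit and was singled out after its values were seen. It had 47 counts in wild-type and 15 in Htt-null ESC, 42 in the RA-DIFF library with the wild-type label and 138 in that labelled Htt-null. The log2 ratio was -1.24 (-2.18 to -0.37) in ESC and 1.90 (1.39 to 2.44) in RA-DIFF, and with the RA-DIFF labels exchanged the latter would be -1.90. At 0.23 to 1.40 CPM, Fgf8 was under 1 CPM in 3 of the 4 libraries.

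Of the marker lists not described above, between the RA-DIFF libraries 3 of 7 primitive and visceral endoderm genes above the expression limit were higher with the Htt-null label and none lower, beside 11.9% of all genes higher and 9.22% lower. The streak mesoderm list had 1 of 3 higher and 2 lower, the midbrain-hindbrain boundary list 2 of 8 higher and 1 lower, and the retinoic acid response list 5 of 10 higher and 3 lower. Of 10 formative epiblast markers 5 were lower and none higher, and of 12 neural progenitor markers 2 were higher and 3 lower.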
